A study of Mus musculus with 3 samples.

Results

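Pleiotrophin (*Ptn*) and midkine (*Mdk*) and the receptors through which they are known to act were followed across the cell types of the E14.5 mouse soft palate. The set was chosen by symbol and held 9 genes of the 32285 counted, the ligands *Ptn* and *Mdk*, the receptor tyrosine phosphatase gene *Ptprz1*, the syndecans *Sdc1*, *Sdc2*, *Sdc3* and *Sdc4*, nucleolin (*Ncl*) and the low density lipoprotein receptor-related protein gene *Lrp1*. All 9 genes were found in each library. Tissue was taken from the posterior part of the palate of C57BL/6 embryos and profiled with 10x Genomics single-cell 3′ chemistry, in which each captured transcript is counted once by its unique molecular identifier (UMI). There were 2 control libraries, of Tgfbr1 fl/fl or Tgfbr1 fl/+ genotype, and 1 library of Osr2-Cre; Tgfbr1 fl/fl mutants, whose labels use the older symbol *Alk5*. *Osr2*-Cre is active in the palatal mesenchyme and not in myogenic cells, so the deletion of this TGF-β receptor is not targeted to muscle. It is not stated whether embryos were pooled or whether the controls came from separate animals.

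Pleiotrophin and midkine are the members of a small family of secreted, heparin-binding growth factors. They bind to sulfated sugar chains, the chondroitin sulfate of PTPRZ1 and the heparan sulfate of syndecans, and binding to PTPRZ1 restrains its phosphatase. LRP1 is an endocytic receptor that binds midkine, and nucleolin is an abundant nucleolar protein that can also bind both ligands at the cell surface. In embryos both ligands are best known from mesenchyme next to epithelia and from the developing nervous system.

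Control 1, control 2 and the mutant library held 2816, 4067 and 8690 barcodes with 22624711, 27814907 and 63505144 UMIs, and 2056, 3689 and 7515 cells were kept. Cells were assigned to a class outside the mesenchyme when at least 2 markers of that class, and of no other such class, were detected, whether or not mesenchyme markers were also present. Palatal mesenchyme-like cells were those of the remaining cells with at least 2 mesenchyme markers. The UMIs of a class were summed and given as counts per 1000000 (CPM). Values are listed throughout in the order control 1, control 2 and mutant. Intervals are exact 95% Poisson intervals and cover counting error only. Palatal mesenchyme-like cells numbered 839, 1758 and 2991, and among them 270, 326 and 424 carried at least 2 perimysial markers. The perimysial, midline, osteogenic and other subtype gates overlapped, and 127, 191 and 318 palatal mesenchyme-like cells fell in 2 or more of them. Markers were compared over the palatal mesenchyme, epithelial, endothelial, myeloid, glial and myogenic classes only. Among these, 5 of 6 markers of the palatal mesenchyme were highest in that class in each library, with *Msx1* the exception. All markers of the other classes compared were highest in their own class, as the gates themselves favour. Further classes, such as cells gated on cartilage collagen genes, were not part of this comparison. Control 1 stood apart, since 15.5% of its cells carried markers of several classes, against 3.33% and 4.90%, and were left out. In control 1, 61.1% of endothelial-like, 58.5% of myeloid-like and 56.5% of glial-like cells also carried at least 2 mesenchyme markers, so levels outside the mesenchyme are also given without such cells. Below, cells with mesenchyme markers are those with at least 2 of them. A cell kept after these are left out can still carry 1. Barcodes shared between libraries numbered 18 for the controls, 34 for control 1 and the mutant and 49 for control 2 and the mutant. *Tgfbr1*, the targeted gene, was counted in palatal mesenchyme-like cells at 50.4, 63.4 and 45.8 CPM, a mutant-to-control log2 ratio of -0.30 where the controls themselves differed by 0.33. Counting at the 3′ end does not show whether these transcripts carry the deleted region.

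Each log2 ratio below compares the mutant CPM with the controls averaged on the log2 scale, and the gap is the log2 distance separating control 1 from control 2. Since the mutant was represented by 1 library and cells are not replicates, genotypes could not be tested against each other. A gene is described as beyond both controls when the mutant lay outside both, the log2 ratio exceeded the gap and its size was at least 0.5, among genes with a mean of at least 10 CPM.

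The sequences upstream of *Ptn* and *Sdc3* are shown because *Ptn* is the ligand that differed more between mesenchyme and muscle cells and *Sdc3* is the only member beyond both controls in palatal mesenchyme-like cells. Both are given 5′ to 3′ on the strand of the gene from RefSeq on GRCm38.p6, at chr6:36810221-36810429 on the minus strand for *Ptn* and at chr4:130792287-130792536 on the plus strand for *Sdc3*. Capitals mark CAGAC or its reverse complement GTCTG, the short motif known from sites bound by SMAD proteins.
Ptn: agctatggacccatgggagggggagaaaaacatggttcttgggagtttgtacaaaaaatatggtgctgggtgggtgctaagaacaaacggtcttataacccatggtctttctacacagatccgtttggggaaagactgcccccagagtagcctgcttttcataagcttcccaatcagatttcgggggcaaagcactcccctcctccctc
Sdc3: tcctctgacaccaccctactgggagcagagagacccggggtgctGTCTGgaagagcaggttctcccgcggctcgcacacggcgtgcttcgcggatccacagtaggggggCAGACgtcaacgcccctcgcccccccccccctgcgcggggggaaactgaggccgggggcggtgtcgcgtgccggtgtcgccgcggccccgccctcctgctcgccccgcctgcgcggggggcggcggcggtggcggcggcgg
In the 250 bases before the start taken for each gene, the motif was found 2 times for *Sdc3*, 1 time each for *Sdc1* and *Ncl*, and not for *Ptn*, *Ptprz1*, *Sdc4* or *Lrp1*, among the 7 members matched. For *Ptn*, *Ptprz1*, *Sdc1* and *Sdc4* only 209, 63, 177 and 0 of these bases lay before the outermost annotated start of the gene. It was found in 42.2% of all 32851 windows of this length, so its presence does not set a member apart. The *Sdc3* window held 32 CpG dinucleotides and that of *Ptn* held 5, against a median of 6 over all windows.

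*Ptn* (ENSMUSG00000029838, chromosome 6 from 36714929 to 36810220 on the minus strand, GRCm38), which encodes pleiotrophin, was high in the mesenchyme. In palatal mesenchyme-like cells it was counted at 1671 (1641 to 1702), 1082 (1062 to 1102) and 1285 (1269 to 1301) CPM. After each cell was thinned to 2000 UMIs, 87.4%, 76.5% and 84.7% of them held a *Ptn* UMI, against 98.5%, 90.8% and 94.4% before thinning. The thinned share was 58.4%, 12.04% and 11.3% in myeloid-like cells, which were taken as the background. In control 1, 58.5% of the myeloid-like cells also carried mesenchyme markers, so the share of that library is not a background for *Ptn*. Control 1 was the highest library and control 2 the lowest, with the mutant in between. The gap of 0.63 was larger than the log2 ratio, -0.07. Cells gated on *Col2a1* and other cartilage collagen genes held *Ptn* at 1494, 1299 and 1055 CPM. This was above the palatal mesenchyme-like level in control 2 and below it in control 1 and the mutant. In perimysial-like cells, the connective tissue cells around the muscle, *Ptn* was counted at 1570.4, 1293 and 1302 CPM. The gap of 0.28 again exceeded the log2 ratio, -0.13, and the mutant was close to control 2. *Ptn* did not separate perimysial-like cells from the rest of the mesenchyme, with log2 differences of -0.14, 0.35 and 0.02. It was lower in midline-like than in the other mesenchymal cells in each library, by log2 differences of -0.55, -0.13 and -0.43.

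*Mdk* (ENSMUSG00000027239, chromosome 2 from 91929805 to 91932297 on the minus strand), which encodes midkine, followed the same broad pattern. It was counted in palatal mesenchyme-like cells at 1246 (1220.2 to 1273), 1047 (1027 to 1066) and 1076 (1061 to 1090.5) CPM. The mutant again lay between the controls, with a log2 ratio of -0.09 beside a control gap of 0.25. In perimysial-like cells the levels were 1287, 1043 and 1045 CPM, with a log2 ratio of -0.15 and a gap of 0.30. With TMM scaling, which weights genes to balance the libraries, the log2 ratios in palatal mesenchyme-like cells were 0.09 for *Ptn* and 0.07 for *Mdk*, so their sign turned with the scaling. Neither ligand was therefore separable from the spread of the controls in the mesenchyme or in its perimysial part. In osteogenic-like cells, the cells with markers of bone formation, *Mdk* was lower than in the other mesenchymal cells in each library, with log2 differences of -0.57, -0.73 and -0.84. The same differences of *Ptn* were 0.27, -0.70 and -0.51, lower in control 2 and the mutant and higher in control 1. With 3 libraries the smallest p that an exact two-sided sign test can reach is 0.25, so such differences are descriptions.

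In endothelial-like and myeloid-like cells, the level of both ligands fell when cells that also carried mesenchyme markers were left out. In endothelial-like cells *Ptn* was counted at 1269, 72.0 and 193 CPM, with control 1 far above the other libraries. Without cells carrying 2 or more mesenchyme markers the levels were 89.2, 31.0 and 41.8 CPM, from 7, 21 and 65 UMIs in 14, 77 and 222 cells. These were 5.34, 2.86 and 3.25 percent of the level in palatal mesenchyme-like cells of the same library. The summed collagen genes *Col1a1*, *Col1a2* and *Col3a1*, used as a measure of mesenchymal RNA, stood at 4.69, 5.34 and 3.07 percent, so *Ptn* in these endothelial-like cells was near that measure. *Mdk* in the same cells was at 20.4, 13.1 and 10.5 percent of its mesenchymal level, above the collagen measure in each library.
In myeloid-like cells with under 2 mesenchyme markers, *Ptn* was counted at 352, 42.0 and 44.9 CPM and *Mdk* at 429, 114 and 58.2 CPM. The values of control 1 were the highest for both genes, and the collagen measure was also highest there, at 26.8, 7.47 and 3.06 percent. In epithelial-like cells with under 2 mesenchyme markers *Ptn* was counted at 439.8, 410.3 and 566 CPM, or 26.3, 37.9 and 44.0 percent of the mesenchymal level, and the collagen measure was 13.1, 17.3 and 12.6 percent. *Mdk* in these cells was counted at 707, 530.3 and 766 CPM, or 56.7, 50.7 and 71.2 percent. Both ligands thus exceeded the collagen measure in epithelial-like cells of all 3 libraries.

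**Figure D1:**
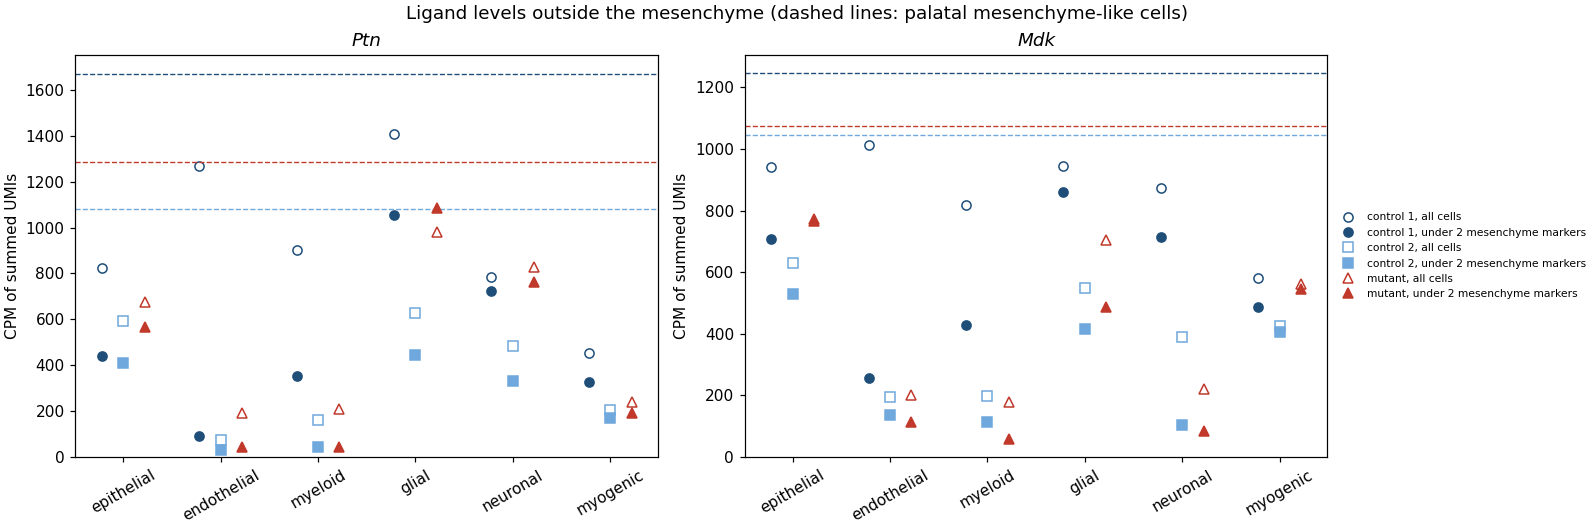
CPM of summed UMIs of *Ptn* (left) and *Mdk* (right) in 6 classes outside the mesenchyme, by library. Open symbols are all cells of the class, filled symbols are cells with under 2 mesenchyme markers, and dashed lines give the palatal mesenchyme-like level of each library. The open symbols of control 1 fall from 1269 to 89.2 CPM for *Ptn* in endothelial-like cells when cells with mesenchyme markers are left out.

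*Ptn* was also counted in glial-like and neuronal-like cells. In glial-like cells with under 2 mesenchyme markers *Ptn* was counted at 1056, 443 and 1085 CPM, from 10, 27 and 101 cells. This was 63.2, 40.9 and 84.4 percent of the mesenchymal level, beside 68.8, 20.3 and 13.5 percent for collagen, so it exceeded the collagen measure in control 2 and the mutant. In control 1 *Ptn* was below the collagen measure, and its source in these cells could not be told apart from mesenchymal RNA. In neuronal-like cells with under 2 mesenchyme markers *Ptn* was counted at 724, 330.3 and 761 CPM and *Mdk* at 713, 104 and 85.3 CPM, from 11, 7 and 279 cells. *Ptn* stood at 43.3, 30.5 and 59.2 percent of the mesenchymal level, above the collagen measure of 33.6, 18.3 and 8.98 percent in each library. *Mdk* stood at 57.2, 9.97 and 7.93 percent, below that measure in control 2 and the mutant. The mutant library held nearly all of these cells, and the controls too few to compare genotypes. The ratio of the ligands' UMIs moved with the cell type. There were 74.6, 96.7 and 83.7 *Mdk* UMIs for each 100 *Ptn* UMIs in palatal mesenchyme-like cells, and 111, 80.9 and 26.5 in neuronal-like cells. After cells with mesenchyme markers were left out of the neuronal-like class, the ratio was 98.4, 31.6 and 11.2. Myogenic-like cells had 128, 208 and 236 *Mdk* UMIs for each 100 *Ptn* UMIs, above both of those classes in each library. Without cells carrying mesenchyme markers the ratio was 149, 238 and 285 in myogenic-like and 286, 443 and 271 in endothelial-like cells, the latter higher in both controls. The ratio is compared across classes only, since UMIs of separate genes do not give their relative transcript numbers.

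Myogenic-like cells, the cells with markers of skeletal muscle and its precursors, numbered 71, 124 and 116. *Ptn* was counted in them at 452, 204 and 238 CPM and *Mdk* at 580.4, 425 and 560.5 CPM. Both were lower than in palatal mesenchyme-like cells in each library, *Ptn* by log2 differences of -1.89, -2.41 and -2.43 and *Mdk* by -1.10, -1.30 and -0.94. Without cells carrying mesenchyme markers, *Ptn* stood at 19.5, 15.8 and 14.9 percent and *Mdk* at 39.1, 38.8 and 50.8 percent of the mesenchymal level, beside 8.86, 6.16 and 7.40 percent for collagen. *Mdk* in myogenic-like cells was thus several times the collagen measure in each library. Within the class, myogenic progenitor-like cells, with *Pax7* or *Myf5* and none of *Myog*, *Mymk* or *Myl4*, numbered 9, 38 and 42, and differentiating myogenic-like cells, with the reverse, numbered 36, 62 and 53. *Ptn* was counted in progenitors at 208, 100.3 and 169 CPM and in differentiating cells at 577, 248 and 327 CPM, lower in progenitors in each library. Collagen stood at 6.73, 9.42 and 15.4 percent of the mesenchymal level in progenitors and at 32.1, 12.6 and 15.6 percent in differentiating cells, so these differed most in control 1. With cells carrying mesenchyme markers left out, *Ptn* was 238, 75.3 and 106 against 352, 214 and 275 CPM, still lower in progenitors in each library. The intervals of these *Ptn* levels overlapped in control 1. *Mdk* was counted in progenitors at 554, 546 and 714 CPM and in differentiating cells at 612, 342 and 426 CPM. It was higher in progenitors of control 2 and the mutant, and its intervals overlapped in control 1. Leaving such cells out, *Mdk* was 561, 558 and 684 against 423, 260.2 and 423 CPM, higher in progenitors in each library, from 6, 36 and 38 progenitors. In control 1 the intervals of these *Mdk* levels still overlapped. The ratio reached 267, 545 and 422 *Mdk* UMIs for each 100 *Ptn* UMIs in progenitors, against 106, 138 and 130.1 in differentiating cells. In the mutant, neither ligand was beyond both controls in myogenic-like cells, with log2 ratios of -0.35 (gap 1.15) for *Ptn* and 0.17 (gap 0.45) for *Mdk*.

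**Figure D2:**
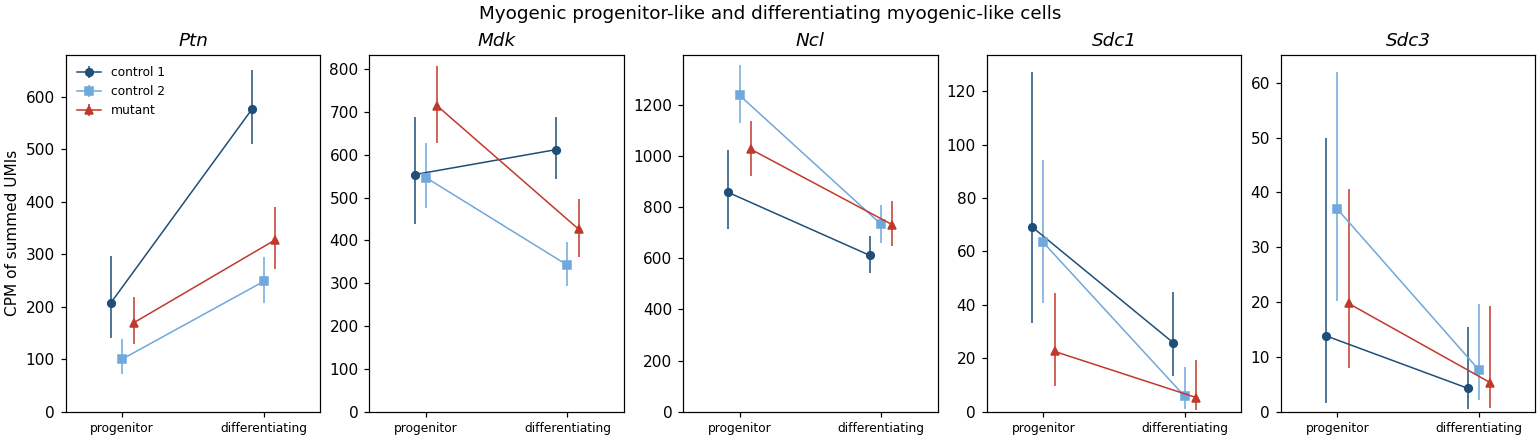
CPM of summed UMIs of *Ptn*, *Mdk*, *Ncl*, *Sdc1* and *Sdc3* in myogenic progenitor-like and differentiating myogenic-like cells, with 95% Poisson intervals and one line for each library. *Ptn* is lower, and *Ncl*, *Sdc1* and *Sdc3* are higher, in progenitors of all 3 libraries. Dividing cells were a larger share of progenitors than of differentiating cells in each library.

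*Ptprz1* (ENSMUSG00000068748, chromosome 6 from 22875502 to 23052916 on the plus strand), which encodes the receptor phosphatase, was a glial gene in this tissue. It was counted in glial-like cells at 113 (73.8 to 166), 198 (144 to 266) and 238 (204 to 276) CPM. In palatal mesenchyme-like cells it was counted at 11.8, 21.1 and 9.70 CPM, so glial-like cells were higher by log2 differences of 3.26, 3.23 and 4.62. Without cells carrying mesenchyme markers the glial-like level was 197, 225 and 464 CPM. After thinning, a *Ptprz1* UMI was found in 21.7%, 37.1% and 45.1% of glial-like cells and in 2.87%, 4.41% and 1.49% of palatal mesenchyme-like cells. Before thinning these shares were 47.8%, 59.5% and 70.1% and 7.63%, 9.90% and 5.45%. No *Ptprz1* UMI was found in myogenic-like cells once those with mesenchyme markers were left out, in 47, 115 and 107 cells, which with 3 UMIs as the limit allows up to 4.41, 2.88 and 3.81 CPM. Within the mesenchyme *Ptprz1* was uneven. Perimysial-like cells exceeded the rest of the mesenchyme in each library, by log2 differences of 1.47, 0.33 and 0.81, and midline-like cells exceeded their rest by 0.92, 0.57 and 0.91.
In perimysial-like cells *Ptprz1* was counted at 20.2 (15.0 to 26.8), 24.8 (19.1 to 31.7) and 14.6 (11.2 to 18.8) CPM, from 49, 64 and 61 UMIs. The mutant was below both controls, with a log2 ratio of -0.62 beside a control gap of 0.30, and its interval overlapped that of control 1 and lay below that of control 2. Without dividing cells the log2 ratio was -0.41, under the minimum size. Over all palatal mesenchyme-like cells the mutant was also the lowest library, but its log2 ratio, -0.70, did not reach the gap of 0.83. In cells thinned to 2000 UMIs it was -1.28 with a gap of 0.62 and met the rule. In epithelial-like cells the levels were 14.3, 13.1 and 8.89 CPM, with a log2 ratio of -0.62 and a gap of 0.13. Without cells carrying mesenchyme markers they were 14.04, 5.03 and 6.12 CPM, from 19, 7 and 12 UMIs, and the mutant lay between the controls. In glial-like cells the mutant was the highest library, but its log2 ratio, 0.67, did not reach the gap of 0.81.

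*Lrp1* (ENSMUSG00000040249, chromosome 10 from 127538161 to 127621148 on the minus strand), the endocytic receptor gene, was counted in mesenchyme and myeloid-like cells and was not confined to them. It was counted at 77.5, 93.1 and 86.8 CPM in palatal mesenchyme-like cells, while myeloid-like cells held 84.9, 93.8 and 110.5 CPM. Leaving out cells with mesenchyme markers gave 94.4, 97.5 and 105 CPM in myeloid-like cells. Cells gated on cartilage collagen genes held 65.4, 86.0 and 112 CPM. Mural-like cells, the cells that surround small vessels, held 92.6, 101 and 114 CPM, from 27, 9 and 44 UMIs. Without those carrying mesenchyme markers they held 52.6, 0 and 51.2 CPM, from 4, 0 and 8 UMIs in 7, 5 and 37 cells. The 0 of control 2 allows up to 134 CPM there. In endothelial-like and myogenic-like cells with under 2 mesenchyme markers *Lrp1* was counted at 0, 4.43 and 7.08 CPM and 17.7, 7.67 and 13.98 CPM. The count of 0 in control 1 allows up to 38.2 CPM. Within the mesenchyme, perimysial-like cells were higher than the remaining cells in each library, by log2 differences of 0.27, 0.54 and 0.70, and osteogenic-like cells were lower, by -0.79, -1.28 and -0.45. It stood at 87.2, 122 and 124 CPM against 72.3, 83.6 and 76.4 CPM in the other mesenchymal cells, perimysial-like cells first. Between genotypes the log2 ratios were 0.03 in all palatal mesenchyme-like cells (gap 0.27) and 0.27 in perimysial-like cells (gap 0.48). In osteogenic-like cells *Lrp1* was counted at 47.6, 39.4 and 67.4 CPM, and the mutant was above both controls with a log2 ratio of 0.64 beside a control gap of 0.28. Among osteogenic-like cells without *Mki67*, *Top2a* or *Cdk1* this log2 ratio was -0.20. The rule was met under 5 of the 8 other settings in which it was applied. Over all 10 other settings this log2 ratio ran from -0.20 to 2.50. The gene overlaps *Gm16217* on the opposite strand, and whether strand was used in counting is not given in the sources used here.

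The syndecans, transmembrane carriers of heparan sulfate, had separate patterns. *Sdc1* (ENSMUSG00000020592, chromosome 12 from 8771323 to 8793715 on the plus strand), the syndecan best known from epithelia, was counted in epithelial-like cells at 102, 76.4 and 71.7 CPM and in palatal mesenchyme-like cells at 72.4, 58.5 and 50.7 CPM, with log2 differences of 0.50, 0.38 and 0.50. In myogenic progenitor-like cells it was counted at 69.2, 63.4 and 22.6 CPM and in differentiating cells at 25.8, 5.73 and 5.32 CPM, from 10, 24 and 8 against 12, 3 and 2 UMIs. Progenitors were higher in each library, with intervals that overlapped in control 1 and the mutant. *Sdc2* (ENSMUSG00000022261, chromosome 15 from 32920723 to 33034935 on the plus strand), a syndecan of mesenchymal cells, was counted in palatal mesenchyme-like cells at 72.2, 74.3 and 63.1 CPM and in mural-like cells at 85.8, 101 and 106 CPM. The mural-like values rest on 25, 9 and 41 UMIs from 24, 12 and 61 cells, and their intervals covered the mesenchymal level in both controls. Of these cells 70.8%, 58.3% and 39.3% also carried mesenchyme markers. *Sdc2* was low in endothelial-like and myogenic-like cells with under 2 mesenchyme markers, at 0, 2.95 and 3.22 CPM and 20.6, 13.4 and 17.8 CPM, with the same limit on the 0 of control 1.
*Sdc3* (ENSMUSG00000025743, chromosome 4 from 130792537 to 130826319 on the plus strand), the syndecan best known from neural tissue, was counted at 34.8, 36.0 and 38.1 CPM in glial-like and 33.9, 51.3 and 47.2 CPM in neuronal-like cells, above the 10.4, 10.6 and 15.3 CPM of palatal mesenchyme-like cells in each library. The neural values rest on few UMIs, 8, 8 and 28 in glial-like and 8, 10 and 147 in neuronal-like cells. *Sdc3* was also higher in myogenic progenitor-like than in differentiating cells, at 13.8, 37.0 and 19.7 against 4.29, 7.64 and 5.32 CPM, from 2, 14 and 7 against 2, 4 and 2 UMIs, and these intervals too overlapped in control 1 and the mutant. Within the mesenchyme it was lower in midline-like cells in each library, by log2 differences of -1.22, -0.61 and -0.51. *Sdc4* (ENSMUSG00000017009, chromosome 2 from 164424247 to 164443887 on the minus strand), a widely expressed syndecan found at cell contacts with the matrix, was counted in myeloid-like cells at 113, 147 and 168 CPM and in epithelial-like cells at 102, 129.5 and 96.7 CPM, both above palatal mesenchyme-like cells at 58.3, 56.5 and 51.5 CPM. Without cells carrying mesenchyme markers the myeloid-like level was 204, 157 and 177 CPM and the epithelial-like level 126, 162 and 119 CPM.

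*Sdc3* was higher in the mutant than in both controls when all palatal mesenchyme-like cells were summed. In palatal mesenchyme-like cells it was counted at 10.4 (8.13 to 13.1), 10.6 (8.73 to 12.8) and 15.3 (13.6 to 17.1) CPM, from 72, 110 and 291 UMIs. The controls were close to each other and the interval of the mutant lay above both of theirs. The log2 ratio was 0.54 and the gap 0.03. Osteogenic-like cells, 88, 43 and 390 of these cells, exceeded the other mesenchymal cells by log2 differences of 0.08, 0.50 and 0.98. In those other cells *Sdc3* stood at 10.3, 10.5 and 12.7 CPM, so the mutant was above both controls by less than the minimum size of the rule. It was also higher in perimysial-like cells, at 10.3, 12.4 and 17.5 CPM with a log2 ratio of 0.63 and a gap of 0.27, and in osteogenic-like cells, at 10.9, 14.8 and 25.0 CPM with a log2 ratio of 0.98 and a gap of 0.44. The perimysial-like sums held 25, 32 and 73 *Sdc3* UMIs, and there the interval of the mutant overlapped those of both controls. The osteogenic-like sums held 11, 6 and 99. In these cells the mutant interval lay above that of control 1 and overlapped that of control 2. Both groups are part of the palatal mesenchyme-like cells, so the 3 results are not independent. In midline-like cells the log2 ratio of *Sdc3* was 0.77 and the gap 0.56, but its mean of 8.62 CPM was under the minimum level. Mesenchymal cells outside the subtype gates, with under 2 markers of each subtype, can still carry some of these markers. Their *Sdc3* levels were 12.8, 11.9 and 13.1 CPM, and the log2 ratio of 0.09 was within the gap of 0.11. In thinned cells a *Sdc3* UMI was found in 1.91%, 1.97% and 2.49% of palatal mesenchyme-like cells and in 2.97%, 4.63% and 2.67% of myeloid-like cells. Before thinning the mesenchymal shares were 8.22%, 5.75% and 8.53%. Giving each cell equal weight, or thinning each cell to 2000 UMIs before summing, gave log2 ratios of 0.41 and 0.34 in palatal mesenchyme-like cells, under the minimum size. In perimysial-like cells it was 0.33 without dividing cells, 0.21 with 3 markers needed and 0.27 with cells taken by either of *Hic1* and *Ebf2*, and no longer met the rule. In osteogenic-like cells without dividing cells it was 1.04, smaller than a gap of 2.07. Myeloid-like cells with under 2 mesenchyme markers themselves held *Sdc3*, at 20.4, 18.0 and 15.8 CPM, so their share is not a background for this gene. No difference is read from the thinned shares. The gene overlaps *Gm12970* and *Gm26716* on the opposite strand, which could not be told apart without strand.

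*Sdc1*, *Sdc2* and *Sdc4* lay slightly below both controls in palatal mesenchyme-like cells. *Sdc1* had a log2 ratio of -0.36 (gap 0.31), *Sdc2* of -0.21 (gap 0.04) and *Sdc4* of -0.16 (gap 0.04). With no minimum size, 4 of 9 members, the syndecans, were outside the controls by more than the gap, as were 37.3% of all 8388 genes tested. The median log2 ratio of all genes was -0.08, and scaling by TMM raised it by 0.16, which gave -0.21 for *Sdc1*, -0.06 for *Sdc2* and 0.69 for *Sdc3*, and placed *Sdc4* at 0 within rounding. In myogenic-like cells *Sdc1* was counted at 33.6, 25.5 and 17.6 CPM and *Sdc4* at 27.5, 25.5 and 17.6 CPM, with log2 ratios of -0.73 (gap 0.40) and -0.59 (gap 0.11). The mutant values rest on 16 UMIs each, and their intervals overlapped those of both controls. With TMM scaling *Sdc1* stayed below both controls at -0.62 and *Sdc4*, at -0.48, did not reach the minimum size. In myogenic-like cells without dividing cells the sign of *Sdc4* turned, with a log2 ratio of 0.37, and *Sdc1*, at -1.93, no longer met the rule.

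*Ncl* (ENSMUSG00000026234, chromosome 1 from 86344719 to 86359400 on the minus strand), which encodes nucleolin, was detected in every class and was highest in myogenic-like cells. It was counted there at 709 (657 to 763), 969.8 (914 to 1028) and 918 (857 to 983) CPM, against 449.5, 596 and 612 CPM in palatal mesenchyme-like cells, with log2 differences of 0.66, 0.70 and 0.58. Myogenic progenitor-like cells were higher still than differentiating cells, at 858, 1238 and 1027 against 612, 733 and 732 CPM. Cells with a UMI of *Mki67*, *Top2a* or *Cdk1* made up 100%, 81.6% and 78.6% of progenitors and 66.7%, 40.3% and 39.6% of differentiating cells. They were also a larger share of myogenic-like than of palatal mesenchyme-like cells in each library. Without such cells, *Ncl* in control 2 was highest in the cells gated on cartilage collagen genes. The part of division in these differences was not tested. Perimysial-like cells were lower than the other mesenchymal cells, by log2 differences of -0.21, -0.07 and -0.40. Between genotypes, the mutant lay between the controls in myogenic-like cells, with a log2 ratio of 0.15 and a gap of 0.45, and in perimysial-like cells, with 0.01 and 0.49. In palatal mesenchyme-like cells the log2 ratio was 0.24 and the gap 0.41.

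**Figure D3:**
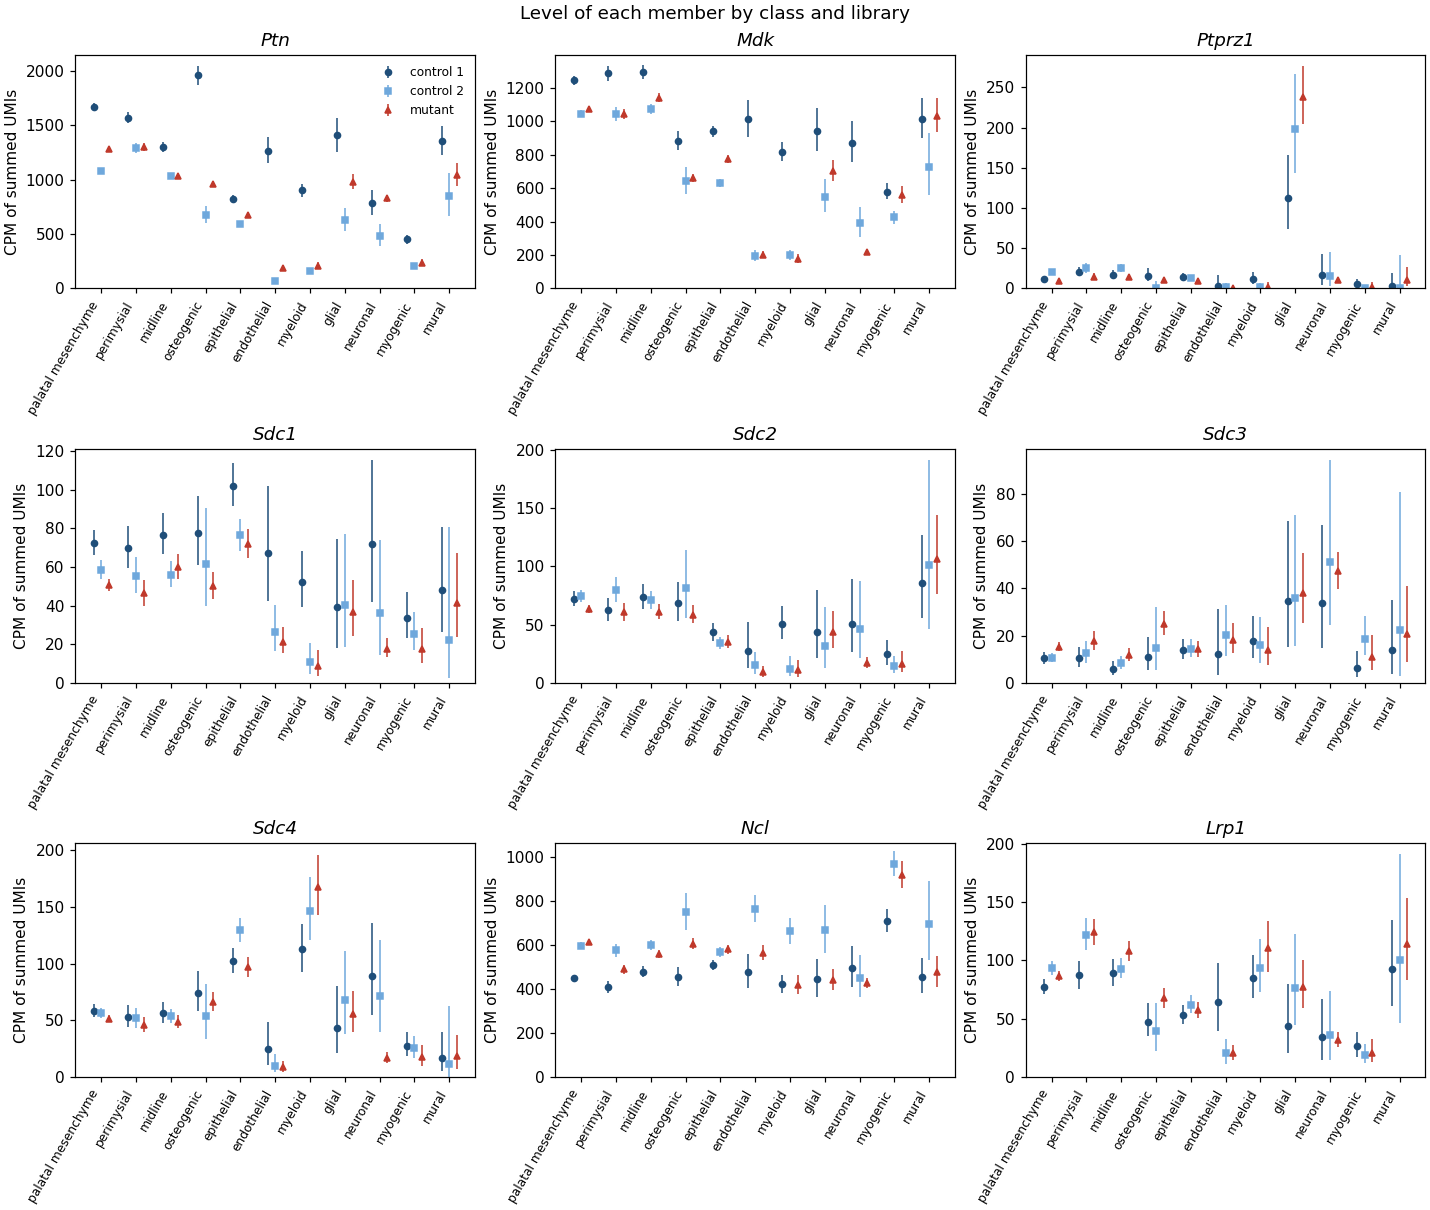
CPM of summed UMIs of each member (panels with separate axes from 0) in 11 classes, for control 1, control 2 and the mutant, with 95% Poisson intervals. *Ptn* and *Mdk* are high across the mesenchymal classes, *Ptprz1* stands out in glial-like cells at 113, 198 and 238 CPM, and *Ncl* is highest in myogenic-like cells.

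Counted over the set, 1 of 9 members was beyond both controls in palatal mesenchyme-like cells (*Sdc3*, higher), where 9.48% of all genes tested met the same rule. In perimysial-like cells it was 2 of 9 (*Sdc3* higher, *Ptprz1* lower) against 13.4% of genes. In midline-like cells 0 of 8 tested members met it, against 9.90%, with *Sdc3* under the minimum level and so not tested. In mesenchymal cells outside the subtype gates it was 0 of 8, against 12.4%. In osteogenic-like cells it was 2 of 8 (*Sdc3* and *Lrp1*, higher) against 14.6%. Cells gated on *Col2a1* and other cartilage collagen genes, which carried at least 2 mesenchyme markers in 92.7%, 88.5% and 78.1% of cells and are not named as cartilage here, had 1 of 8 (*Lrp1*, higher, log2 ratio 0.58, gap 0.40) against 13.7%.
Outside the mesenchyme, epithelial-like cells had 1 of 9 (*Ptprz1*, lower) against 9.33%, and myogenic-like cells had 2 of 8 (*Sdc1* and *Sdc4*, lower) against 21.4%. Endothelial-like cells had 1 of 8 (*Sdc2*, lower) against 16.0%. The *Sdc2* value there rested on cells with mesenchyme markers, since without them 0, 2 and 5 UMIs were counted. Myeloid-like cells had 0 of 8, against 22.7%, and glial-like cells 0 of 9, against 23.3%. Differentiating myogenic-like cells had 2 of 7 (*Sdc2* and *Lrp1*, lower) against 29.5%. *Sdc2* stood there at 17.2, 15.3 and 5.32 CPM (UMIs 8, 8 and 2), with a log2 ratio of -1.61 and a gap of 0.17. *Lrp1* stood at 25.8, 26.7 and 7.98 CPM (UMIs 12, 14 and 3), with a log2 ratio of -1.72 and a gap of 0.05. The intervals of the mutant overlapped those of both controls for both genes, and without cells carrying mesenchyme markers 5, 6 and 1 UMIs of *Sdc2* and 6, 1 and 2 of *Lrp1* were left. No more than 2 members met the rule in any of these groups of cells, and nothing particular to them is read from the counts. The median log2 ratio of the 9 members in palatal mesenchyme-like cells was -0.09, beside -0.08 for all genes, and in perimysial-like cells -0.15, beside -0.04. In palatal mesenchyme-like cells, 163 of all genes were higher and 632 lower by the rule, and with TMM scaling 391 were higher and 318 lower. In perimysial-like cells these counts were 427 and 728, and 658 and 494 with TMM scaling. Over the 12 groups of cells the higher share of calls ranged from 13.4% to 46.7%, and from 40.6% to 62.0% with TMM scaling. TMM scaling added *Ncl* in mesenchymal cells outside the subtype gates, *Sdc4* in myeloid-like cells and *Sdc3* in the *Col2a1*-gated cells, all higher. It removed *Sdc4* in myogenic-like cells.

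**Figure D4:**
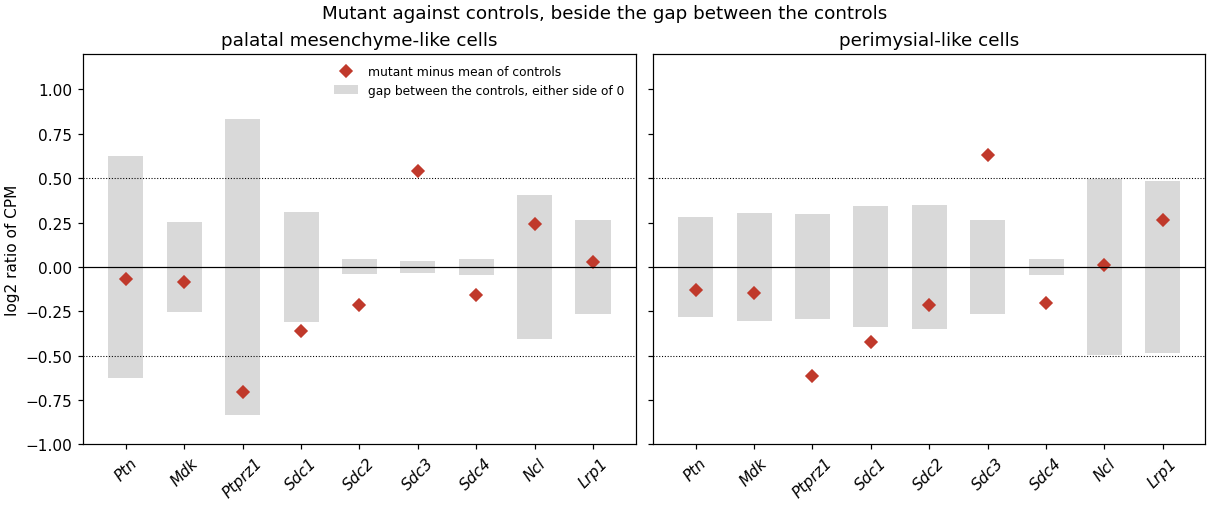
Log2 ratio of mutant to mean control CPM (diamonds) for the 9 members in palatal mesenchyme-like and perimysial-like cells. Grey bars span the gap between the controls on either side of 0 and dotted lines mark 0.5. Only *Sdc3* at left, and *Sdc3* and *Ptprz1* at right, lie outside both the bar and the dotted lines.

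Other genes of the pathway were taken from 6 lists. In palatal mesenchyme-like cells, 45 of 62 listed genes reached 10 CPM, of which 6 were lower and 0 higher than both controls by the rule, where 9.48% of all genes met it and most of these were lower. With TMM scaling 4 were lower, without *Xylt2* and *Sulf1*, and 2 were higher, *Gpc4* and *Nolc1*. Among the other receptors and binding partners, 2 of 6 tested were lower. *Nrp1*, which encodes the co-receptor neuropilin-1, was counted at 52.0, 36.8 and 24.2 CPM (log2 ratio -0.85), and *Vcan*, which encodes the chondroitin sulfate proteoglycan versican, at 332, 346 and 205 CPM (-0.72). Among 16 tested genes of heparan and chondroitin sulfate synthesis and editing, 2 were lower. These were *Xylt2*, which encodes a xylosyltransferase that starts the sugar chains, at 18.3, 13.3 and 10.9 CPM (-0.53), and *Sulf1*, which encodes an extracellular sulfatase that trims heparan sulfate, at 53.7, 81.2 and 42.7 CPM (-0.63). *Cask*, a scaffold protein gene whose product binds syndecan tails, was 1 of 6 tested partners of syndecans and LRP1 and was counted at 57.7, 51.5 and 31.2 CPM (-0.81). *Tnc*, which encodes the matrix protein tenascin-C, was 1 of 4 tested partners of PTPRZ1 and was counted at 48.5, 63.1 and 32.3 CPM (-0.78). None of the 6 other heparan sulfate proteoglycans and none of 7 nucleolar partners of nucleolin were beyond both controls. The median log2 ratios of the 6 lists ranged from -0.29 to 0.14, beside -0.08 for all genes.
In perimysial-like cells 4 of 46 tested list genes were lower and 3 higher, where 13.4% of all genes met the rule, and with TMM scaling 2 were lower and 5 higher. *Vcan*, *Xylt2*, *Cask* and *Tnc* were again lower, *Vcan* and *Tnc* not with TMM scaling, with *Vcan* at 368, 416 and 267 CPM and *Tnc* at 45.8, 51.6 and 34.1 CPM. Higher there were *Gpc1* at 16.1, 17.1 and 24.0 CPM (0.53) and *Gpc4* at 11.6, 16.3 and 24.7 CPM (0.85), which encode glypicans, heparan sulfate proteoglycans anchored to the membrane by a lipid, and *Cspg5*, which encodes neuroglycan C, at 10.7, 9.32 and 15.1 CPM (0.60). The nucleolar partners had 0 of 7 beyond both controls in these cells also.

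The genes most like each member were found by the Pearson correlation of log2(CPM + 10) over 53 points, each a class in a library with at least 50000 UMIs, with class markers left out. The points share libraries, and mesenchymal classes share cells, so these values describe likeness only and carry no test. *Ptn* was most like *Dlx2* (r = 0.92), *Tle2* (r = 0.91) and *Col3a1* (r = 0.91), and its correlation with *Mdk* was 0.83. *Mdk* was most like *Mfap2* (r = 0.92), *Trip6* (r = 0.91) and *Rab34* (r = 0.91). *Ptprz1* was most like *Gpm6b* (r = 0.84), *Ttyh1* (r = 0.83) and *Gjc3* (r = 0.83), genes known from glia. *Sdc1* was most like *Ccn1* (r = 0.81), *Psrc1* (r = 0.81) and *Ccnd2* (r = 0.80), and *Sdc2* like *Fam114a1* (r = 0.87), *Col6a2* (r = 0.87) and *P3h3* (r = 0.86). *Sdc3* was most like *L1cam* (r = 0.72), *Plxna4* (r = 0.68) and *Syt1* (r = 0.68), genes known from neurons, with weaker values than the other members, and *Sdc4* like *Sema4b* (r = 0.74), *Rnf130* (r = 0.73) and *Gm2a* (r = 0.71). *Ncl* was most like *Npm1* (r = 0.94), *Ybx1* (r = 0.91) and *Ptges3* (r = 0.90). *Lrp1* was most like *Rilpl2* (r = 0.87), *Thbs1* (r = 0.86) and *Tns3* (r = 0.86).

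Dividing cells, those with a UMI of *Mki67*, *Top2a* or *Cdk1*, made up 49.8%, 51.0% and 38.7% of palatal mesenchyme-like cells. Their *Ptn* was lower than that of the other cells in each library, with log2 differences of -0.16, -0.12 and -0.21, and so was their *Mdk*, with -0.11, -0.18 and -0.11. The share of dividing cells was lowest in the mutant so the genotype ratios were also taken without them. In cells without those markers the log2 ratio was -0.04 for *Ptn* and -0.11 for *Mdk*, both still smaller than the gap between the controls.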

How the data were processed

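Single-cell libraries of the soft palate were read from the count matrices that the authors deposited, which hold whole-number UMI counts per gene and barcode with no normalization. The matrix headers name Cell Ranger 4.0.0, the submitters' processing notes name Cell Ranger 3.1.0 and mm10, and the filter that chose barcodes is not given in the sources used here. Barcodes needed 500 genes and no more than 10% of UMIs from mitochondrial genes, and doublets were scored with Scrublet (scanpy 1.11.5). Its own threshold marked 0, 0 and 1 barcodes and so did not work, and the highest scores at a preset 0.8% per 1000 barcodes were removed instead, 61, 132 and 596 cells after the other filters. Classes needed 2 markers, and 20% hemoglobin UMIs for erythroid cells. Such a gate favours deeper cells, and 9.24%, 24.4% and 26.6% of cells fell in no class. UMIs were summed per class and library and given as CPM, with 3 UMIs in place of 0 before a logarithm. Ratios needed 20 cells in each library and a mean of 10 CPM. The genes named outside the set were the listed genes that met the call rule and the 3 most alike genes per member. The set, its lists and the rules were chosen with earlier results of these data known. Scaling by TMM (edgeR 4.0.16, R 4.3.3), other cell filters, gates and weights, thinning to 2000 UMIs and leaving out each control were alternatives. The calling rule and the thinning step were tested on simulated counts, in which the controls differed only in depth and counting error. Python 3.11.15, numpy 2.4.6, scipy 1.17.1, pandas 2.3.3 and matplotlib 3.10.9 were used.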

Additional observations from a re-analysis of the deposited data

How the results depend on the processing

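Of 293 values recomputed under other settings, 235 moved by no more than the SD between the controls (counts by no more than 1.5 times). Another 55 moved more, and 3 that had met the rule turned sign. Leaving out a control always shifts a log2 ratio by less than that SD, so these ratios were among the 235 by construction. *Ptn* and *Mdk* met the rule in palatal mesenchyme-like or perimysial-like cells under none of the settings run, although the log2 ratio of *Ptn* in palatal mesenchyme-like cells was 0.25 without control 1 and -0.38 without control 2. The count of 1 member (*Sdc3*) beyond both controls in palatal mesenchyme-like cells was 0 when each cell had equal weight, 2 without dividing cells (*Ptprz1* added) and 4 with no minimum size. It was 2 with 1 mesenchyme marker needed (*Ptprz1* added), a setting chosen after seeing the data. In thinned cells the count was again 1, but the member was *Ptprz1* in place of *Sdc3*. With either control left out there is no gap, so members were counted only by a log2 ratio of at least 0.5 in size. That looser count was 2 each time, with *Ptprz1* beside *Sdc3* without control 1 and *Sdc1* beside *Sdc3* without control 2. The log2 ratio of *Sdc4* in myogenic-like cells turned to 0.023 with 3 markers needed and 0.37 without dividing cells, and that of *Lrp1* in osteogenic-like cells to -0.20 without dividing cells. The class with the highest level was compared for 27 pairs of a member and a library, and was the same for 17 of them in thinned cells. With cells of other classes that carry 2 mesenchyme markers left out, also chosen after seeing the data, it was the same for 19. The cause of these shifts was not tested. No paired analysis was possible because the mutant has 1 library. Depth limits the receptors in the smaller groups of cells, where, with mesenchyme-marker cells left out, *Ptprz1*, *Sdc2* and *Lrp1* reached 0 UMIs in some libraries.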
